A study of Homo sapiens with 6 samples.

Results

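Chromosome 2 carried 5502 of the 49028 LaminB1 regions in the 4 deposited lists, and every list row on that chromosome was taken, with no measured value used in the choice. The double loss lists held 1373 and 1358 of these regions and the control lists 1238 and 1533. LaminB1 was mapped by CUT&RUN, in which an antibody directs a nuclease to cut out the chromatin it binds, in HCT116, a human colorectal carcinoma line. The double loss group was HCT116 TOP2A mAID/TOP2B -/-, given 500 uM auxin for 8 h so that the degron-tagged TOP2A was removed in cells without TOP2B. The control group was HCT116 TOP2A mAID, labelled wildtype, whose files are named as without auxin. The degron tag on the endogenous TOP2A alleles and a G1 arrest with 2 uM palbociclib for 28 h were common to both groups. Whether the TOP2B knockout is 1 clone is not given in the sources used here. There were 2 LaminB1 libraries and 1 IgG library per group. Nothing in the labels says that the 2 libraries of a group came from separate cultures, so every p-value measures a spread that may be technical. Both lists of a group also share 1 control library, as counts given below show, so that spread leaves out variation between control libraries.

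Lamin B1 belongs to the protein mesh that lines the inner nuclear membrane, and the long stretches of chromatin that touch it are called lamina-associated domains. These domains are usually rich in AT bases, poor in genes and late to replicate, and many hold long neuronal or tissue-specific genes that are silent in epithelial cells. TOP2A and TOP2B are the type II topoisomerases, which pass one DNA duplex through another to release supercoils and tangles. Because CUT&RUN was run on pools of cells, a contact made in fewer cells and a weaker contact in every cell cannot be told apart. The lists hold no expression values, so the labelled cell type has no marker check here.

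The sequences below show the RefSeq promoters of genes of at least 20 kb, at most 1 per 1 Mb, whose bodies had the widest gaps in coverage between the groups, the 3 widest upward (DOCK10, FSIP2, DNAH7) and then the 3 widest downward (VSNL1, CMPK2, IL1RL1). Each runs from 250 bases before to 50 bases after the annotated start, 5′ to 3′, and capitals mark CpG dinucleotides.
DOCK10, GRCh38.p14 chr2:225042419-225042718 (minus strand): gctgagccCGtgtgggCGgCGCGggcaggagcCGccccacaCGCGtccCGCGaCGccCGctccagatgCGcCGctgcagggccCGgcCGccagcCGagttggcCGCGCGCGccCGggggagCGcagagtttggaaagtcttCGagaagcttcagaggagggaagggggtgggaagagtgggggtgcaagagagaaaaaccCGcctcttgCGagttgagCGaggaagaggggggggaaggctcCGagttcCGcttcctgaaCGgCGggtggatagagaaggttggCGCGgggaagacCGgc
FSIP2, GRCh38.p14 chr2:185738554-185738853 (plus strand): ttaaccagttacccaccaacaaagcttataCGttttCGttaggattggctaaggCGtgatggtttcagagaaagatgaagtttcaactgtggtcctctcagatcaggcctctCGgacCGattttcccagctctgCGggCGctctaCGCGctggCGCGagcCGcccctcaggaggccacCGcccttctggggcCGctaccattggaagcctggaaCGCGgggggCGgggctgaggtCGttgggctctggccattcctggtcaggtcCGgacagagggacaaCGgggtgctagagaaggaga
DNAH7, GRCh38.p14 chr2:196068788-196069087 (minus strand): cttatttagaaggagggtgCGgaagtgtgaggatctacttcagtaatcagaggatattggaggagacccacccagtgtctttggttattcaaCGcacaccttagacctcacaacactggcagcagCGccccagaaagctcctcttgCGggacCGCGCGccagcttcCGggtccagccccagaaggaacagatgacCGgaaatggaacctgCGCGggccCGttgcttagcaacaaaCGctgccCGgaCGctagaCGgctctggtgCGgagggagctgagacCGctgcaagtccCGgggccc
VSNL1, GRCh38.p14 chr2:17539722-17540021 (plus strand): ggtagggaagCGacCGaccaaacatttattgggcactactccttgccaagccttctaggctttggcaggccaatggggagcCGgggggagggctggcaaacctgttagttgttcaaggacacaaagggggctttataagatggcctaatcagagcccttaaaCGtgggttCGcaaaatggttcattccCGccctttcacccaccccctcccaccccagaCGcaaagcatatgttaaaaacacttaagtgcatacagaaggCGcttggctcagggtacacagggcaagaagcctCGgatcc
CMPK2, GRCh38.p14 chr2:6866586-6866885 (minus strand): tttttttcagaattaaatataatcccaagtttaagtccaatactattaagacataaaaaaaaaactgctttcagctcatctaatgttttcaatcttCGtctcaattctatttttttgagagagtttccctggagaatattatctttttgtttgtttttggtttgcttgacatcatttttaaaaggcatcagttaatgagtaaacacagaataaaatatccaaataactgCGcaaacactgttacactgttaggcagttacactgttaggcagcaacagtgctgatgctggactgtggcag
IL1RL1, GRCh38.p14 chr2:102337007-102337306 (plus strand): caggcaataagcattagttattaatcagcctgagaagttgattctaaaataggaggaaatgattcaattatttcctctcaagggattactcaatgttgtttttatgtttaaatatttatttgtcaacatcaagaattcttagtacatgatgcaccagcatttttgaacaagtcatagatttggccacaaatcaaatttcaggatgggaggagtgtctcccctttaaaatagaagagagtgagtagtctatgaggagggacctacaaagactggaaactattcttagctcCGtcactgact
The upward promoters had 33, 20 and 19 CpGs at a GC content of 69.7%, 59.3% and 59.3%, in the order printed. The downward ones had 9, 2 and 1 CpGs at 53.7%, 32.7% and 35.7%. Medians over the 15811 protein-coding promoters in the table were 22 CpGs and 62.7%. The motif TATAAA, searched on both strands, occurred in the VSNL1 window and in none of the other 5 printed, against 9.64% of the 15811 protein-coding promoters in the table. The starts used for FSIP2 and IL1RL1 lie inside their annotated gene bodies.

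Across the whole of chromosome 2 the covered share, meaning the percent of its 1 kb steps inside called regions, overlapped between the groups. It was 26.9% and 27.2% in the double loss libraries, against 27.2% and 25.6% in the control libraries (exact permutation test, two-sided, p = 1). The other autosomes were at 20.7% and 21.1% in the double loss libraries and 20.1% and 18.5% in the control libraries. The excess of chromosome 2 over them was therefore 6.22 and 6.04 points in the double loss libraries, against 7.13 and 7.06 points in the control libraries. That excess was lower in both double loss libraries (exact permutation p = 0.333, two-sided, the smallest that the 6 assignments of 2 against 2 libraries allow). The difference was -0.97 points, and -1.55 points with chromosome 20 left out of the other autosomes. Without control 2 the double loss share of chromosome 2 was the lower one, by 0.14 points.

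Both arms overlapped too, with the boundary taken at 94 Mb. The short arm was covered at 27.0% and 27.5% in the double loss libraries and at 27.6% and 26.4% in the control libraries. The long arm was covered at 26.9% and 27.0% in the double loss libraries and at 26.9% and 25% in the control libraries. An even share along each arm thus hid large shifts between places, which the windows below show. In 1 kb steps, lists of the same group shared more of chromosome 2, at a Jaccard index (shared over joint length) of 0.629 for double loss and 0.661 for control. The 4 pairs across groups gave 0.570 to 0.593. On the other autosomes the index was much the same, at 0.626 for double loss, 0.640 for control and 0.564 to 0.582 across groups.

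Regions on chromosome 2 differed little in width between the groups apart from 1 list. Median width was 30 and 29 kb in the double loss lists, against 31 and 23 kb in the control lists. Control 2 stood apart from the other 3 lists, with 74 regions under 10 kb, where double loss 1 and 2 had 8 and 6 and control 1 had 4. Regions of at least 100 kb numbered 127 in each double loss list and 145 and 128 in the control lists. On the short arm such wide regions took 31.6% and 31.3% of the covered length in double loss and 40.8% and 36.7% in control, so the groups did not overlap there (exact permutation p = 0.333, two-sided). On the long arm they took 36.1% and 41.2% in double loss and 42.8% and 36.5% in control, and the groups overlapped. The widest region was 534 kb in double loss 1 and 707 kb in double loss 2, the latter over part of PTH2R, a parathyroid hormone receptor gene, and sequence beyond it. In control 1 it was 1382 kb (chr2:7177001-8559000), with no protein-coding gene, and in control 2 it was 460 kb, over part of PARD3B, a cell polarity gene.

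Along the arms the covered share ranged from 0% to over 80% of a 5 Mb window. In the double loss libraries the highest window ran from 210 to 215 Mb, at 81.5% and 84.2%, and it holds ERBB4. In the control libraries the highest window ran from 15 to 20 Mb, at 83.9% and 80.6%. Each of 6 windows was at least 50% covered in all 4 lists, starting at 15, 145, 150, 160, 205 and 210 Mb. A further 6 windows were under 1% in all 4 lists, starting at 70, 95, 170, 230, 235 and 240 Mb, and the last of them ends at the end of the chromosome. Windows under 1% held a median of 47.5 protein-coding gene starts, against a median of 16.5 in windows called higher, 17 in windows called lower and 25 in windows not called. Over the 48 full windows, Spearman's rho between gene starts and covered share was -0.33 in double loss and -0.24 in control, a description across windows of the same libraries.

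**Figure D1:**
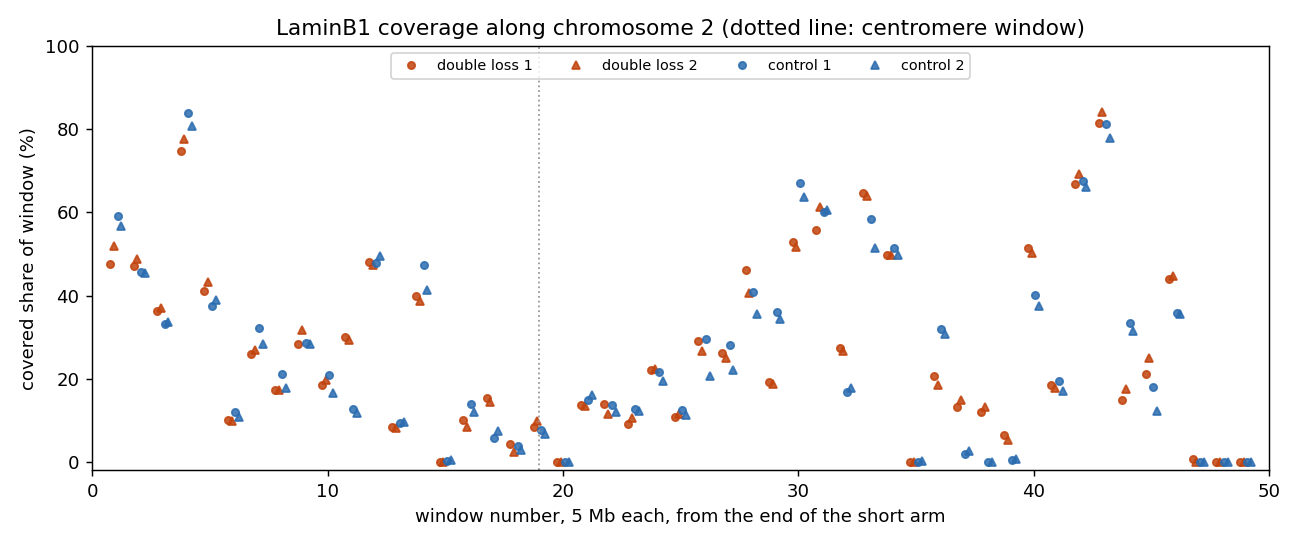
Covered share of each 5 Mb window (vertical axis, %) against window number from the short-arm end (horizontal axis), 1 point per library; circles are libraries numbered 1 and triangles those numbered 2. The groups part most at windows 11, 29, 38 and 44, while windows 20, 48 and 49 are at 0% in all 4 libraries.

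Window by window, gain and loss stood side by side. Of 43 windows tested on chromosome 2, limma called 10 higher and 7 lower in double loss at an adjusted p under 0.05. Over all 474 windows tested genome wide, 33.3% were called higher and 11.6% lower; the difference of chromosome 2 from these shares was not tested. In 16 windows the lower of the double loss shares exceeded the higher control share, and in 14 the reverse was true, against 51.1% and 21.7% genome wide. The median window difference was 0.37 points on chromosome 2 and 1.53 points genome wide. When 1 library was left out, the spread came from the other group alone and the lone library was assumed to vary like it. On that footing limma called 2 higher and 0 lower without double loss 1, with 12 windows at an unadjusted p under 0.05. Without double loss 2 it again called 2 and 0, with 13 windows at an unadjusted p under 0.05. Without control 1 the counts were 11 and 4, and without control 2 they were 8 and 6. Over the 10 windows described next, the difference without 1 library was 0.723 to 1.28 times that with all 4.

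The largest rise was on the short arm in the window from 50 to 55 Mb. It was covered at 30.1% and 29.3% in the double loss libraries, against 12.6% and 11.7% in the control libraries, a difference of 17.6 points (limma adjusted p = 7.66e-05). Region number there was 46 and 40 in double loss and 23 and 28 in control, so the rise came with more regions. The window holds 12 protein-coding gene starts, fewer than the median of 16.5 among windows called higher.

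A run of 4 windows from 180 to 200 Mb on the long arm was higher throughout. Together they were covered at 20.8% and 20.9% in the double loss libraries, against 10.6% and 10.2% in the control libraries. The window from 185 to 190 Mb was at 12% and 13.2% in double loss and at 0% in both controls (limma adjusted p = 1.47e-05), with 19 and 22 regions in double loss and 0 in either control. The window from 180 to 185 Mb was at 13.1% and 15.0% in double loss and 1.96% and 2.70% in control (limma adjusted p = 0.000101). The window from 190 to 195 Mb was at 6.52% and 5.22% in double loss and 0.44% and 0.60% in control (limma adjusted p = 0.000863). The window from 195 to 200 Mb was at 51.3% and 50.2% in double loss and 40.1% and 37.6% in control (limma adjusted p = 0.00285), a difference of 11.9 points that came to 2.96 with the stronger 50% of regions by the authors' log2 fold (adjusted p = 0.208). With those stronger regions the differences from 180 to 185 Mb and from 185 to 190 Mb came to 6.91 and 7.18 points, against 11.7 and 12.6 with all regions, and both were still called by limma. The first 3 of these windows were nearly free of regions in the control lists, while the last already held much covered sequence. On the same arm the window from 155 to 160 Mb was at 27.4% and 26.6% in double loss and 16.7% and 17.8% in control (limma adjusted p = 0.00176).

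Falls were as large and lay on either side of that run. The window from 140 to 145 Mb was covered at 19.1% and 18.7% in the double loss libraries, against 36.1% and 34.3% in the control libraries, a difference of -16.3 points (limma adjusted p = 0.000276). Its neighbour from 145 to 150 Mb was at 52.8% and 51.6% in double loss and 67.2% and 63.8% in control (limma adjusted p = 0.00174). The window from 175 to 180 Mb, which contains the HOXD cluster, was at 20.8% and 18.6% in double loss and 32.0% and 30.7% in control (limma adjusted p = 0.00143). The window from 215 to 220 Mb was at 14.8% and 17.5% in double loss and 33.4% and 31.4% in control, a difference of -16.3 points (limma adjusted p = 0.000339). The first window of the short arm, from 0 to 5 Mb, was at 47.5% and 52.0% in double loss and 59.2% and 56.7% in control (limma adjusted p = 0.0236). Its difference of -8.23 points came to -3.75 with the stronger 50% of regions (limma adjusted p = 0.439). It was not called with either control library left out, and none of these windows was called with either double loss library left out. In each of these 5 windows the groups did not overlap, which their choice as the 5 widest downward gaps fixes. The window from 15 to 20 Mb fell by 6.10 points, while those from 160 to 165 Mb and from 225 to 230 Mb rose by 9.37 and 8.53 points, all called by limma.

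Windows that moved in opposite directions touched each other at 3 places. The window from 75 to 80 Mb was called lower, at 10.0% and 8.50% in double loss and 14.0% and 12.1% in control (limma adjusted p = 0.0428, near the threshold). Beside it the window from 80 to 85 Mb was called higher, at 15.5% and 14.5% in double loss and 5.76% and 7.5% in control (limma adjusted p = 0.0014). The lower window from 175 to 180 Mb borders the higher run that starts at 180 Mb. The lower window from 215 to 220 Mb borders a higher window from 220 to 225 Mb, at 21.2% and 25.1% in double loss and 18.0% and 12.2% in control (limma adjusted p = 0.0224). The windows from 75 to 85 Mb and from 220 to 225 Mb were not among the named windows followed when 1 library was left out. Nor were those from 15 to 20, 160 to 165, 190 to 195 and 225 to 230 Mb. Of 9 neighbouring pairs on chromosome 2 with both windows called, 3 had opposite calls, against 16 of 93 such pairs genome wide.

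**Figure D2:**
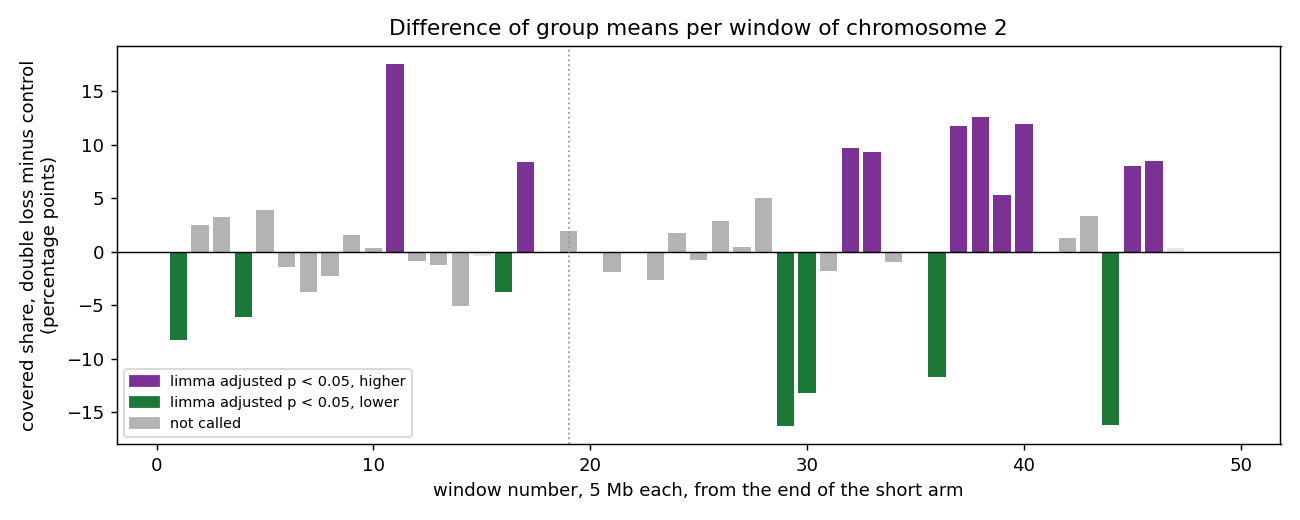
Difference of group means of covered share in percentage points, double loss minus control (vertical axis), per 5 Mb window from the short-arm end (horizontal axis); bar colours give the limma call. Bars reach 17.6 points at window 11 and -16.3 points at windows 29 and 44, and windows 36 and 37 point in opposite directions.

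Read densities inside regions differed between the groups mostly in the control library, whose reads the files give as InputCount beside the LaminB1 reads given as ChIPCount. On chromosome 2 the regions held 12.9 and 13.0 LaminB1 reads per kb in the double loss lists, against 12.1 and 12.8 in the control lists. They held 8.23 control library reads per kb in both double loss lists, and 6.35 in both control lists. LaminB1 over control library reads was thus 1.56 and 1.58 in double loss and 1.90 and 2.02 in control, before any scaling for depth. The authors' log2 fold, which equals log2 of that ratio per region minus 1 constant per list, had medians on chromosome 2 of 0.53 and 0.52 in the double loss lists and 0.59 and 0.64 in the control lists. Where 2 lists of 1 group had a region with identical edges, its control library counts were identical in 7 of 7 cases, and between groups this was so in 0 of 7. The groups thus had separate control libraries, and a difference in that library and a difference between the groups cannot be told apart. The same limit applies to the covered shares and to their limma calls.

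Along the chromosome LaminB1 density was higher in windows with more coverage, while control library density was slightly lower there. Over the 43 tested windows LaminB1 reads per kb ranged from 11.5 to 14.4 in double loss 1, 11.6 to 14.4 in double loss 2, 9.77 to 13.3 in control 1 and 11.1 to 14.3 in control 2. The lowest value was in the window from 190 to 195 Mb in all 4 lists. The highest was in the window from 205 to 210 Mb in both double loss libraries and in the window from 15 to 20 Mb in both controls. Spearman's rho with the covered share of the same library was 0.54 and 0.50 in double loss and 0.61 and 0.62 in control, a description over windows that share a library. For control library reads the same rho was -0.29 and -0.28 in double loss and -0.29 and -0.23 in control. Control library density was highest beside the centromere, in the windows from 85 to 90 Mb (11.5 reads per kb in double loss 1) and from 90 to 95 Mb (11 in double loss 2, 8.26 in control 1 and 8.37 in control 2).

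**Figure D3:**
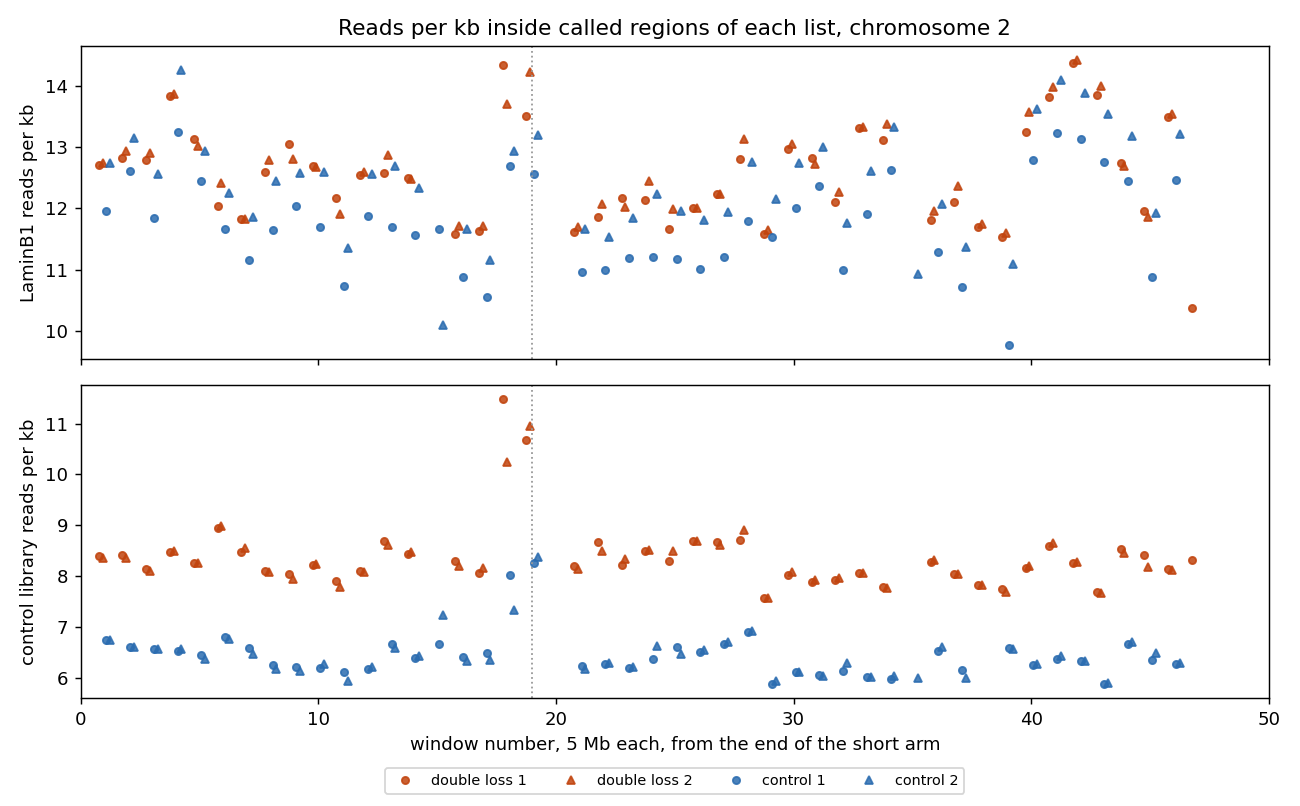
LaminB1 reads per kb (upper panel) and control library reads per kb (lower panel) inside the called regions of each list, by 5 Mb window from the short-arm end, 1 point per library. Control library reads form separate bands for the groups, with medians of 8.26 and 8.24 in double loss and 6.37 and 6.36 in control; windows without regions have no point.

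Densities were next compared over the 1 kb steps called in all 4 lists, in the 37 windows of chromosome 2 with at least 100 kb of such steps. Each region's count was spread evenly over its length. A step thus carries the mean of its whole region, which can include sequence outside the shared steps, so these are not reads counted on identical sequence. Each window's log2 ratio of double loss over control was set against the median of 334 windows genome wide. LaminB1 density on this scale ran from -0.11 to 0.07, with a median of -0.02, and control library density ran from -0.07 to 0.12, with a median of 0.01. Setting values to the median window takes out the difference of the groups that all windows share, including that of the control libraries given above. After each library was set to its own median window, double loss lay above control without overlap in LaminB1 density in 11 windows and below it in 18, against 44.3% and 27.2% genome wide. The same count is not given for control library reads, since both lists of a group share 1 such library.

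The windows from 140 to 145 Mb and from 215 to 220 Mb had the deepest falls in coverage and the lowest relative LaminB1 density. It was at -0.11 from 140 to 145 Mb and at -0.10 from 215 to 220 Mb (log2, relative to the median window), where control library density was within 0.01 of the median in both. The next deepest falls, of -13.3 points from 145 to 150 Mb and -11.7 points from 175 to 180 Mb, came with a LaminB1 density of -0.02 in each. From 5 to 10 Mb, where coverage was 2.46 points higher without a call, it was at -0.09. Per library, set to its own median window, the window from 140 to 145 Mb was at -0.15 and -0.17 in double loss and -0.06 in both controls, and that from 215 to 220 Mb was at -0.02 or above in double loss and 0.09 and 0.07 in control. LaminB1 density was below 0 in 6 of 6 windows called lower and above 0 in 5 of 6 windows called higher, by as little as 0.00 from 195 to 200 Mb. In windows not called it was below 0 in 19 of 25. The exception among the higher windows was that from 220 to 225 Mb, where LaminB1 density was at -0.06 and control library density at -0.07. Spearman's rho between the coverage difference and relative LaminB1 density was 0.62 over the 37 windows, and -0.05 for control library density. These are descriptions over windows of the same 4 libraries. Covered share and LaminB1 density come from the same LaminB1 reads, so one is not independent support for the other. The steps compared came to 254 kb from 140 to 145 Mb and 545 kb from 215 to 220 Mb, and leave out the lost sequence itself. LaminB1 and control library densities had opposite signs in 18 of the 37 windows, against 52.1% genome wide, which is near that background. The windows from 75 to 85 Mb and from 180 to 195 Mb had too little shared sequence for this comparison, so their control library reads were not compared between groups.

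**Figure D4:**
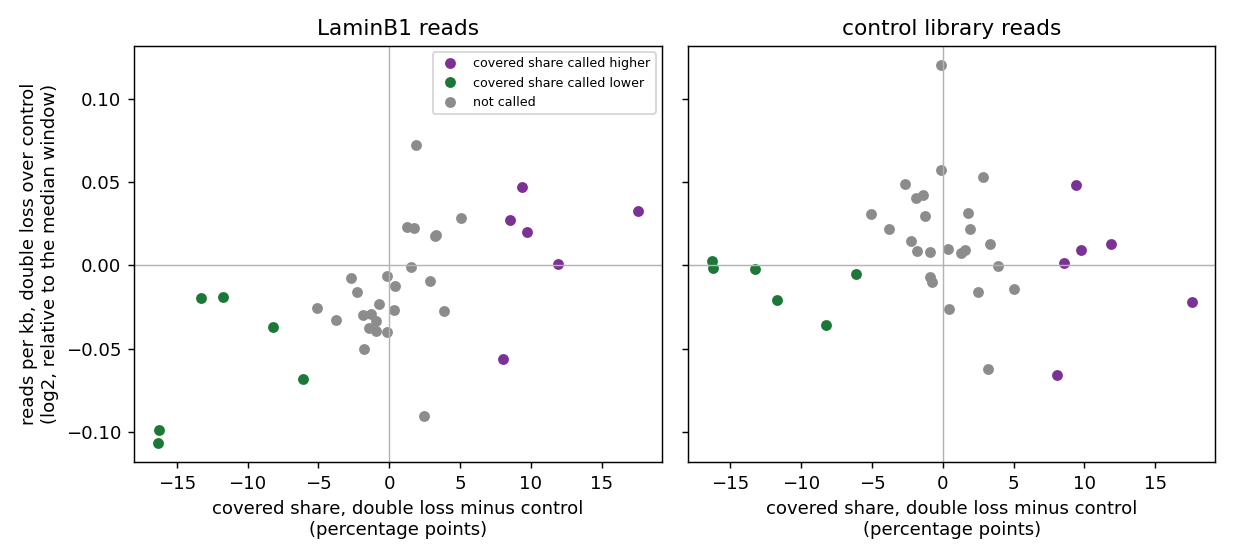
Relative read density of 37 windows, log2 of double loss over control set to the median window genome wide (vertical axis), for LaminB1 reads (left) and control library reads (right), against the difference in covered share, double loss minus control (horizontal axis). Windows called lower sit at or below -0.02 for LaminB1 reads and between -0.04 and 0.00 for control library reads.

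At the finest scale gain and loss on chromosome 2 nearly balanced. Sequence found in the double loss lists alone (both of them) is called gained here and came to 5.22 Mb in 574 stretches. Sequence found in the control lists alone (again both) is called lost and came to 5.21 Mb in 566 stretches. No sums for other chromosomes stand beside these, so whether such a balance is particular to chromosome 2 is not known. Lists of the same group also differed: 80.4 Mb was in either double loss list and 50.6 Mb in both. For the control lists these were 76.9 and 50.8 Mb. Sequence in all 4 lists summed to 35.98 Mb, which was 38.2% of the total of 94.2 Mb. The median stretch was 6 kb for both gain and loss. Without any 1 library both sums grow by construction, to between 9.13 and 11.5 Mb gained and between 8.84 and 10.3 Mb lost.

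Gained stretches were more often remote from regions of the other group than lost ones. Stretches at least 100 kb from any region of the other group made up 16.2% of the gained length and 5.34% of the lost length. Stretches that touched such a region made up 50.8% and 56.9%. These shares were not tested. The 4 windows from 180 to 200 Mb held 21.2% of the gained length and 0.538% of the lost length of the chromosome. The 2 windows from 140 to 150 Mb held 24.1% of the lost length and 2.58% of the gained length.

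The longest gained stretch, chr2:183694001-183791000 (97 kb), lies between NUP35, a nuclear pore gene, and ZNF804A, a zinc finger gene, and overlaps no protein-coding gene. The regions over it held 12.2 and 12.6 LaminB1 reads per kb in the double loss lists. The next, chr2:212375001-212452000 (77 kb), lies in ERBB4, which encodes a receptor tyrosine kinase of the epidermal growth factor family. The remaining 3 of the 5 longest were 51, 51 and 47 kb, in the deserts beside NUP35 and FSIP2. The longest lost stretch, chr2:17569001-17639000 (70 kb), lies in VSNL1, and the regions over it held 13.0 and 13.6 LaminB1 reads per kb in the control lists. The next 4 overlap no protein-coding gene: 1 of 65 kb between MTX2 and HNRNPA3, 1 of 55 kb between ATP5MC3 and LNPK, and 2 of 64 and 46 kb between TNP1 and TNS1. The longest stretch in all 4 lists, chr2:197836001-198144000 (308 kb), lies over PLCL1, a phospholipase C-like gene. Other long ones overlapped a gene and extended beyond it. They were 287 kb at PARD3B, 275 kb at CPS1, the urea cycle carbamoyl phosphate synthetase gene, and 195 kb at UNC80, a sodium leak channel subunit gene. A stretch of 219 kb between ICOS and PARD3B overlapped no protein-coding gene.

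In bins of 100 kb, limma called 6 higher and 2 lower of 1278 tested on chromosome 2, against 0.642% and 0.296% genome wide. The bin chr2:183700001-183800000 was at 91% and 96% in double loss and 0% in both controls (limma adjusted p = 0.0471). The bin chr2:176700001-176800000 was at 0% in both double loss libraries, against 95% and 92% in the control libraries (limma adjusted p = 0.0456). The groups stood 50 points or more apart in 17 bins upward and 26 downward, against 1.59% and 1.25% genome wide. Of the 8 called bins, 4 were at 91% or more in every library and differed by less than 9 points, among them the other lower bin. With 1 library left out, on the same footing as for windows, the counts were 122 and 30 without double loss 1, 132 and 39 without double loss 2, 22 and 2 without control 1, and 14 and 0 without control 2, with 195 bins at an unadjusted p under 0.05.

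Of 1254 protein-coding genes on chromosome 2, 240 had covered sequence in at least 1 list, and limma called 1 of these higher and 2 lower, against 1.67% and 0.981% of 3057 genes genome wide. Without overlap between the groups, double loss was higher for 47 genes and lower for 41, against 21.5% and 13.8% genome wide. Of the 240 genes, 80 had 50% or more of the body covered in every list. A share of 50% separated the groups for 17 genes, 9 with double loss above it and 8 with control above it, against 4.94% and 3.57% genome wide. With double loss 1 left out, the calls numbered 20 higher and 10 lower, and with double loss 2 left out, 20 and 8. They numbered 6 and 17 without control 1, and 5 and 14 without control 2.

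The 3 calls were VSNL1, ACMSD and RPRM, of which RPRM was named after its value was seen. VSNL1, the gene of a neuronal calcium sensor protein (chr2:17539972-17657018), was at 0% in both double loss libraries, against 78.6% and 74.3% in the control libraries (limma adjusted p = 0.0181). ACMSD, the gene of a decarboxylase of tryptophan breakdown (chr2:134838616-134902034), was at 0% in both double loss libraries and at 34.7% in both control libraries (limma adjusted p = 0.0371). RPRM, a cell cycle arrest gene of 1.43 kb (chr2:153477338-153478762), was at 100% in both double loss libraries and 0% in both controls (limma adjusted p = 0.0142). RPRM lies inside GALNT13, a gene of O-linked glycosylation, which was itself at 71.5% and 79.8% in double loss and 94.0% and 92.2% in control (limma adjusted p = 0.198). The short gene and the long one around it thus had differences of opposite sign. ACMSD and RPRM had no spread within either group, and with the stronger 50% of regions they came to -17.3 and 50 points and were not called (limma adjusted p = 0.547 for each). With 10 kb added on each side of every gene, limma called 0 in either direction on chromosome 2, with 37 genes at an unadjusted p under 0.05.

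The other genes with wide gaps (20 kb or longer) did not pass. DOCK10, the gene of a guanine nucleotide exchange factor (chr2:224765090-225042468), was at 71.5% and 85.6% in double loss and 0% and 11% in control (limma adjusted p = 0.177). FSIP2, a sperm tail fibrous sheath gene (chr2:185737134-185833290), was at 68.8% and 49.8% in double loss and 0% in both controls (limma adjusted p = 0.0843). DNAH7, an axonemal dynein heavy chain gene (chr2:195737703-196068837), was at 52.9% and 42.4% in double loss and 0% in both controls (limma adjusted p = 0.0539). For each of these 3 the groups were far apart, while the double loss libraries differed from each other by over 10 points. ACVR1C, a TGF-beta family type I receptor gene, was at 81.5% and 75.6% in double loss and 15.7% and 33.3% in control. BARD1, the gene of the partner of BRCA1, was at 75.4% and 77.8% in double loss and 32.2% and 46.8% in control. FIGN, the gene of a microtubule-severing enzyme, was at 93.3% and 100% in double loss and 67.8% and 60.7% in control. The zinc finger gene ZNF385B was at 51.2% and 42.4% in double loss and 13.8% and 17.4% in control. These 4 genes lay in regions in all 4 lists.

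On the downward side CMPK2, a mitochondrial nucleotide kinase gene (chr2:6840553-6866635), was at 10.1% and 0% in double loss and 100% and 71.4% in control (limma adjusted p = 0.266). IL1RL1, the gene of the interleukin 33 receptor (chr2:102311563-102352356), was at 0% in both double loss libraries and 44.1% and 68.6% in the controls (limma adjusted p = 0.111). ARHGAP15, the gene of a Rac GTPase-activating protein (chr2:143129419-143768352), was at 36.8% and 38.2% in double loss and 81.5% and 84.3% in control (limma adjusted p = 0.112). ARHGAP15 lies in the window with the largest fall in coverage. DCDC2C, a doublecortin domain gene, was at 31.2% and 29.8% in double loss and 86.2% and 52.9% in control. ICOS, a T cell co-stimulator gene, was at 54.7% and 62.8% in double loss and 100% and 83.9% in control. MEIS1, a homeobox gene, was at 48.3% and 64.8% in double loss and 84.9% and 90.7% in control. With the stronger 50% of regions by the authors' log2 fold, CMPK2 turned to 5.05 points higher in double loss.

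**Figure D5:**
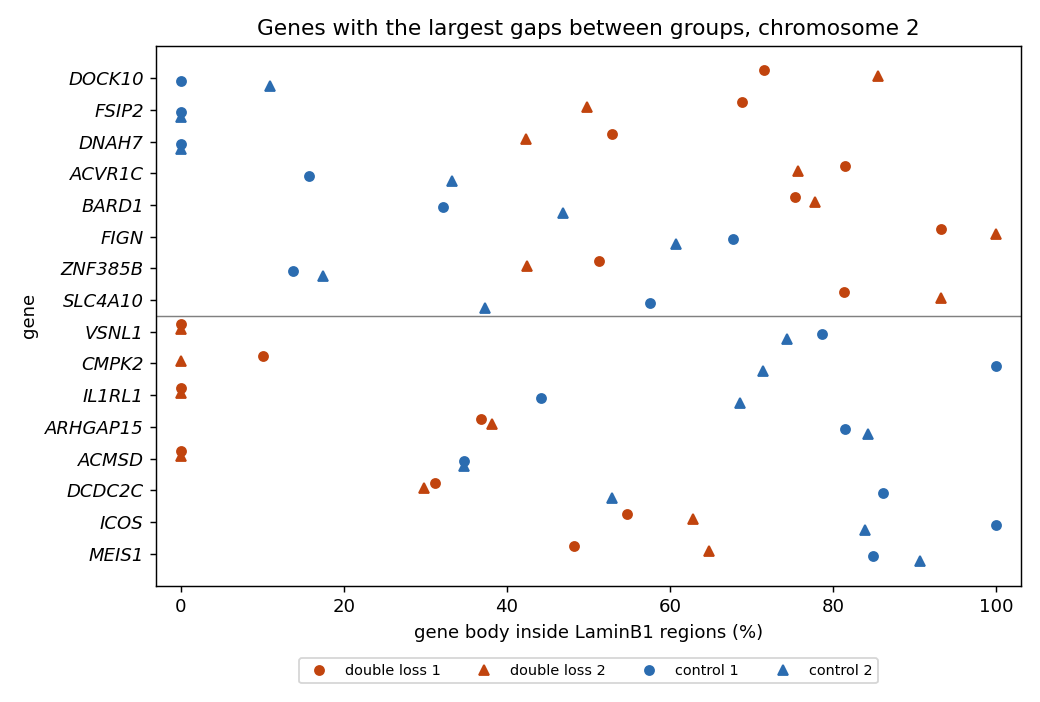
Percent of each gene body inside LaminB1 regions (horizontal axis) for the 8 genes with the widest gaps upward (above the line) and the 8 with the widest gaps downward (below it) among genes of 20 kb or more, at most 1 per 1 Mb, 1 point per library. For each of the 16 genes the points of the groups do not overlap, which the choice of genes fixes; VSNL1 and ACMSD passed the limma threshold.

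Gene lists of chromosome 2 differed in whether they were covered at all. Of 16 long neuronal and adhesion genes, 15 were covered, 6 had both double loss libraries above both controls, 2 had both below (47 and 41 of the 240 covered genes of the chromosome), and limma called 0 in either direction; the median difference of its 16 members was 2.03 points, against -0.47 over those 240. ERBB4 was at 92.8% and 93.9% in double loss and 76.0% and 70.6% in control (limma adjusted p = 0.112). SLC4A10, a neuronal bicarbonate transporter gene, was at 81.4% and 93.3% in double loss and 57.5% and 37.3% in control (limma adjusted p = 0.305). KCNJ3, a potassium channel gene, had the highest mean of the list, at 97.5% and 100% in double loss and 92.5% and 95.0% in control.

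The 5 voltage-gated sodium channel genes were covered at 75.3% or more in every library. SCN3A was at 96.6% and 100% in double loss and 96.6% in both controls. SCN2A was at 93.3% and 93.5% in double loss and 97.4% and 100% in control, and SCN7A was at 75.3% in both double loss libraries and 86.8% and 75.3% in the controls. Their list median difference was -2.43 points and limma called 0 of 5.

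The HOXD cluster of homeobox genes had 3 of 10 members covered. HOXD1 was at 0% in both double loss libraries and 40.5% and 100% in the controls (limma adjusted p = 0.373), and EVX2 was at 0% in both double loss libraries and 39.0% and 8.15% in the controls. HOXD3 varied within both groups, at 0% and 58.8% in double loss and 0% and 88.0% in control. Of 6 genes of the interleukin 1 receptor cluster, 4 had covered sequence, IL1RL1 most. IL1R1 was at 23.7% and 0% in double loss and 0% in both controls. The gamma crystallins, the interleukin 1 family, the REG lectins, the UGT1A genes, the 5 collagen genes and the 14 genes used by every cell type had 0 members covered in any list. That places them outside called regions in both groups.

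Of 1108 chromosome 2 genes with a promoter in the RefSeq table, 126 had promoter steps covered in at least 1 list and 40 in all 4. Promoter coverage was unique to double loss, in each of its lists, for RND3, UPP2 and FSIP2, and unique to control, in each of its lists, for DCDC2C, IL1RL1 and ICOS. Genome wide this was so for 6.06% upward and 5.31% downward of 1468 promoters with covered steps. RND3, a small GTPase gene, was at 100% of its body in both double loss libraries and 24.7% and 70.8% in the controls (limma adjusted p = 0.270), and turned to -47.7 points with the stronger 50% of regions. The VSNL1 and DNAH7 promoters printed above lay outside regions in all 4 lists, although the coverage of their bodies did not overlap between the groups. The DOCK10 promoter lay inside in both double loss lists and in control 2. That of CMPK2 lay inside in double loss 1 and in both control lists.

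Median promoter GC content was 54.0% for the 71 genes at least 50% covered in all 4 lists, with a median of 11 CpGs, and 64.7% for the 890 genes outside regions in all 4 lists, with 25 CpGs. Outside those 71, the 32 genes whose groups did not overlap upward had a median of 62.2% and 22.5 CpGs, and the 22 whose groups did not overlap downward had 49.5% and 9 CpGs. Medians over all 1108 were 63.7% and 23 CpGs, near those of the upward set. TATAAA was found in 9.38% of the upward and 18.2% of the downward set, against 7.58% of all 1108. These sets were formed from the values compared here, so their composition is given as a description without a test.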

How the data were processed

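LaminB1 CUT&RUN region lists of 4 HCT116 libraries were used, 2 per group; the IgG libraries entered only through the control counts in the lists. The submitters' processing notes name Bowtie2 2.3.4.3, Picard and the build hg38; the region caller is not given in the sources used here. LaminB1 and control library counts per region were deposited as whole numbers. Each region also has a p-value, raw and adjusted, as deposited. The deposited score was 100 times the deposited log2 fold, as tested on the values. Only reads inside regions are listed, so total depth is unknown; on chromosome 2 these were 839438 and 853105 LaminB1 reads in double loss and 795381 and 795103 in control. Files were matched to samples by genotype and replicate number.

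Coverage was computed in 1 kb steps (Python 3.11.15, numpy 2.4.6, pandas 2.3.3, scipy 1.17.1; figures with matplotlib 3.10.9). Genes and promoters came from RefSeq GRCh38.p14, which shares primary coordinates with hg38; the table gave 19970 protein-coding genes, and 23 of 25 named genes matched a promoter. Coordinates are printed from 1, and rows on chromosome Y, 6 in all, were left out. Shares of 5 Mb windows (at least 1% covered in 1 library), 100 kb bins (at least 5%) and gene bodies (any) were arcsine square root transformed and fitted genome wide with limma 3.58.1 (R 4.3.3), using a trended variance, Benjamini-Hochberg adjustment and a threshold of 0.05, after a test on simulated shares. Region counts were not fitted with a count model, since regions were called per library. Single values were compared by exact permutation tests. Named genes were the 8 per direction with the widest gap between groups and a length of 20 kb or more, at most 1 per 1 Mb, plus list members with the 2 largest differences and the highest mean. Named windows and stretches were the 5 most extreme of each kind. RPRM, GALNT13, RND3 and the remaining promoter and neighbour genes were named after their values were seen. A few genes inside the regions and lists are not reported here. The members, lists and tests were chosen with earlier results of these data known.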

Additional observations from a re-analysis of the deposited data

How the results depend on the processing

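Total depth is unknown and each group has its own control library. Of the alternatives that change the shares themselves, all 70 values for the 10 named windows kept their direction, as did 210 of 224 for named genes; 4 reversed and 10 came to 0. The other alternatives change the test and cannot change a direction. HOXD3 ranged from -58.6 to 29.4 points when 1 library was left out. Keeping the stronger 50% of each list by log2 fold turned CMPK2 to 5.05 and RND3 to -47.7 points. Leaving out 1 library gave -0.14 to 1.48 points for covered share, -167.5 to 127.5 regions, -1.5 to 6.5 kb for median width, 9.13 to 11.5 Mb gained and 8.84 to 10.3 Mb lost. It gave 2 to 11 windows higher and 0 to 6 lower, 14 to 132 bins higher and 0 to 39 lower, and 5 to 20 genes higher and 8 to 17 lower.

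With that stronger 50%, covered share was at -0.65 points, and 6 windows were called higher and 8 lower, so lower calls outnumbered higher ones. On the same setting 0 bins were called in either direction by limma, with 224 at an unadjusted p under 0.05. Merging regions within 5 kb gave a region number difference of 18, 9 bins lower, and 2 genes higher and 4 lower. Windows shifted by 2.5 Mb gave 9 higher and 4 lower, and 10 Mb windows gave 5 higher and 3 lower. Bins numbered 0 and 0 with untransformed shares (267 at an unadjusted p under 0.05) and 2 and 0 with no filter on low shares. Genes numbered 0 and 0 with 10 kb flanks. In the 21 windows with 500 kb or more in common to every list, LaminB1 density was higher in 6 and lower in 12. It was opposite in sign to control library density in 8 of the 21. The cause of these changes was not tested.

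Replicate numbers were not taken as pairs: deviations of same-numbered libraries correlated at -0.05 over windows, -0.00 over bins and -0.02 over genes genome wide, and at 0.14, 0.01 and 0.07 on chromosome 2, and the labels name nothing that they share. With the replicate block, limma called the same numbers of windows, 10 and 7, but 0 bins and 0 genes in either direction, with 202 bins and 21 genes at an unadjusted p under 0.05.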
